A study of Mus musculus with 6 samples.

Results

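The mitochondrial ribosomal proteins are the protein subunits of the ribosome that works inside mitochondria. They were taken as the protein-coding genes whose symbol starts with Mrpl or Mrps followed by a digit, and 77 of the 28987 genes in the deposited mouse table met that rule. Of these, 48 carry an Mrpl symbol, for the large subunit, and 29 an Mrps symbol, for the small subunit. They lie on 17 chromosomes. By the GENCODE M21 annotation, 78 genes fit the rule, and Mrpl33 is not analysed here.

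RNA came from bone marrow of C57BL/6 mice with mutations of CBL and RUNX1, used as a model of myelodysplastic syndrome, and every group carried them. The 6 libraries formed 4 groups. Ly6G+ myeloid cells, in the main maturing neutrophils, gave 2 libraries from mice given Mdivi-1 and 2 from mice given vehicle. Hematopoietic stem and progenitor cells (HSCPs) gave 1 library after Mdivi-1 and 1 after vehicle. HSCPs were enriched through CD117, the receptor encoded by Kit, and the mutant clone was then sorted, while Ly6G+ cells were sorted by flow cytometry. The drug, Mdivi-1, is known as a blocker of Drp1, a GTPase that pinches mitochondria apart. The dose, the time, the age of the mice and the way the mutations were introduced do not appear in the labels. Marrow was taken from individual mice, but no label says which mouse gave which library. The p-values therefore reflect how far these libraries vary, which may be technical.

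As background, the mitochondrial ribosome translates the few messenger RNAs that mitochondrial DNA encodes, all for membrane subunits of the respiratory chain and of ATP synthase. Its RNA is made inside mitochondria, whereas all of its proteins are encoded in the nucleus, made in the cytosol and imported. Many of its proteins descend from those of the bacterial ribosome, and others were acquired in the course of mitochondrial evolution. The promoters of its protein genes are known in human cells to hold sites of NRF1, of ETS family factors and of YY1.

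Promoter windows of 300 bases, from 250 before to 50 after an annotated start, were taken from RefSeq (GRCm38.p6) for 68 of the 77 genes, which gave 74 windows. The letters searched, on both strands, were CCGGAAG for ETS factors, the NRF1 palindrome that stands in capitals in the Mrpl9 window, and AAGATGGCG for YY1, and letters of different motifs overlapped in 0 member windows. The 4 windows printed here were chosen to show each of these motifs near the start. All 4 are on the plus strand, and capitals mark the motif letters or their reverse complement. They are Mrpl52 (chr14:54426659-54426958), Mrpl58 (chr11:115403502-115403801), Mrpl9 (chr3:94443086-94443385) and Mrps18a (chr17:46110754-46111053).
Mrpl52: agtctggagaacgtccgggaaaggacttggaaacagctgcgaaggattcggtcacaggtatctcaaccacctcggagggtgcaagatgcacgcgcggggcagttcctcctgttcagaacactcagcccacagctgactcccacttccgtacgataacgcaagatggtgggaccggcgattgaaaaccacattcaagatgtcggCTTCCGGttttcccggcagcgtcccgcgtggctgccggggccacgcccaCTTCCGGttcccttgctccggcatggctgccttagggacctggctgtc
Mrpl58: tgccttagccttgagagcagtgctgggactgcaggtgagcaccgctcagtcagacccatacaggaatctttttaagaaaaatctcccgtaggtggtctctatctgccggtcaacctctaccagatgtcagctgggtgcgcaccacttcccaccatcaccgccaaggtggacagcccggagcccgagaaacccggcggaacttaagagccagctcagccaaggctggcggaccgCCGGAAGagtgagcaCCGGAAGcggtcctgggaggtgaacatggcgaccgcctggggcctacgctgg
Mrpl9: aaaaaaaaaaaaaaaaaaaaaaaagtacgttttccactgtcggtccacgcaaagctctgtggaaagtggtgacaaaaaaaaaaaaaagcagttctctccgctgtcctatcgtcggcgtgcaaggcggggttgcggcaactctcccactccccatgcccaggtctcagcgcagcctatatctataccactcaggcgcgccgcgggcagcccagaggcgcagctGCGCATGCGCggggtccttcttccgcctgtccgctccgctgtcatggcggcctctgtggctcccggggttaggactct
Mrps18a: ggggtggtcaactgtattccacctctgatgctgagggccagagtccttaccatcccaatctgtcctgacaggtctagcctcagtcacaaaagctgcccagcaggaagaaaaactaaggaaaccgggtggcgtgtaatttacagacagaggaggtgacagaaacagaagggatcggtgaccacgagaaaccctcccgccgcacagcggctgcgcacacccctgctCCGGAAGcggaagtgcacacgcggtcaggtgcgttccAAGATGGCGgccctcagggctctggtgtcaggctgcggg

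The ETS letters stood in 25 of the 74 member windows (33.8%), against 8.86% of all 32851 mouse windows and 18.1% of the 11629 windows of other genes tested between populations. The YY1 letters stood in 8 member windows (10.8%), against 1.4% of all windows and 3.14% of those of other tested genes. The NRF1 letters stood in 3 member windows (4.05%), against 0.971% and 2.1%. The E-box letters CACGTG, bound by Myc among others, stood in 7 member windows (9.46%), against 7.15% and 10.1%. The CCAAT letters were about as frequent in member windows (39.2%) as in all windows (37.4%). The TATAAA letters stood in 6.76% of member windows, against 13.6% of all windows and 6.95% of those of other tested genes. Member windows had a median GC content of 58.8%, against 52.7% over all windows. These counts describe letters in a window, not binding.

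The values are TPM, the share of a library's transcripts after correction for length, so read depth is unknown and a lower share does not give the RNA per cell. In these bulk samples fewer cells of a type and less RNA per cell cannot be told apart. Each library held between 11456 and 11930 genes at 1 TPM or more. Kit, which defines the HSCP enrichment, had 9.53 and 8.73 TPM in Ly6G+ Mdivi-1 libraries and 10.4 and 14.1 TPM in Ly6G+ vehicle libraries, against 64.9 TPM in HSCP Mdivi-1 and 72.2 TPM in HSCP vehicle. Ly6g, which encodes the sorted antigen, had 642 to 840 TPM in the Ly6G+ libraries, against 90.2 and 187 TPM in the HSCP libraries. Both defining markers were thus highest in the population named for them, although the HSCP libraries also held Ly6g transcripts. Dnm1l, which encodes Drp1, had 23.0 and 24.6 TPM in Ly6G+ Mdivi-1 and 24.3 and 23.1 TPM in Ly6G+ vehicle. In HSCPs it had 35.5 TPM after Mdivi-1 and 30.6 TPM after vehicle.

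Ly6G+ cells devoted a smaller share of their transcripts to the mitochondrial ribosome than HSCPs did. The 77 genes together had 2294 and 2343 TPM in Ly6G+ Mdivi-1, 2366 and 2412 TPM in Ly6G+ vehicle, 5087 TPM in HSCP Mdivi-1 and 4742 TPM in HSCP vehicle. The sum averaged 2354 ± 49.1 TPM in Ly6G+ cells (SD, n = 4) and 4914 ± 244 TPM in HSCPs (SD, n = 2), a ratio of 0.479. Here and below, SDs over 4 Ly6G+ or 2 HSCP libraries pool both treatments. The HSCP SD therefore reflects the gap between 1 Mdivi-1 and 1 vehicle library, not replicate spread. The groups did not overlap, and the gap between populations was far larger than the gaps among libraries within either population. The calprotectin genes S100a8 and S100a9 took between 19.7% and 20.9% of TPM in Ly6G+ libraries, against 7.06% and 7.70% in HSCP libraries. With those genes left out, the members held 0.292% to 0.307% of TPM in Ly6G+ libraries, against 0.566% and 0.533% in HSCP libraries.

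Markers of other cell types also differed between the populations. Calls here are from the test between populations below (limma, adjusted p under 0.05), where 50.3% of all genes were lower and 22.2% higher. The 12 erythroid markers summed to 2566 to 3361 TPM in Ly6G+ libraries, against 5645 and 5336 TPM in HSCP libraries, and 10 of 12 were lower in Ly6G+ cells. The 9 eosinophil markers summed to 85.3 to 93.9 TPM in Ly6G+ libraries, against 399 and 702 TPM in HSCP libraries, and 5 of the 7 tested were lower and 1 higher. Of 19 late neutrophil markers 18 were higher in Ly6G+ cells, and of 14 stem and progenitor markers 13 were lower. Of these 4 lists, Ear6 of the eosinophil list was the only marker at 0 TPM in any library. Prg2 alone held most of the eosinophil sum. Other lists went the other way. Of 8 mast cell and basophil markers 6 were higher in Ly6G+ cells and 1 lower, and of 11 T and NK cell markers tested 6 were higher and 1 lower. Monocyte, dendritic, megakaryocyte and B cell lists held calls in both directions. The part of these markers in the members' difference was not tested.

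The balance between Mrpl and Mrps symbols was alike in all libraries. These symbols only approximate the subunits, since some members sit elsewhere and some subunits carry other symbols, as given below. The summed Mrpl level was 1.66 to 1.71 times the summed Mrps level in the Ly6G+ libraries, against 1.68 in each HSCP library. Single genes spread widely around that balance. The median member had 25.04 to 27.2 TPM in Ly6G+ libraries, against 57.9 and 53.5 TPM in HSCP libraries.

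**Figure D1:**
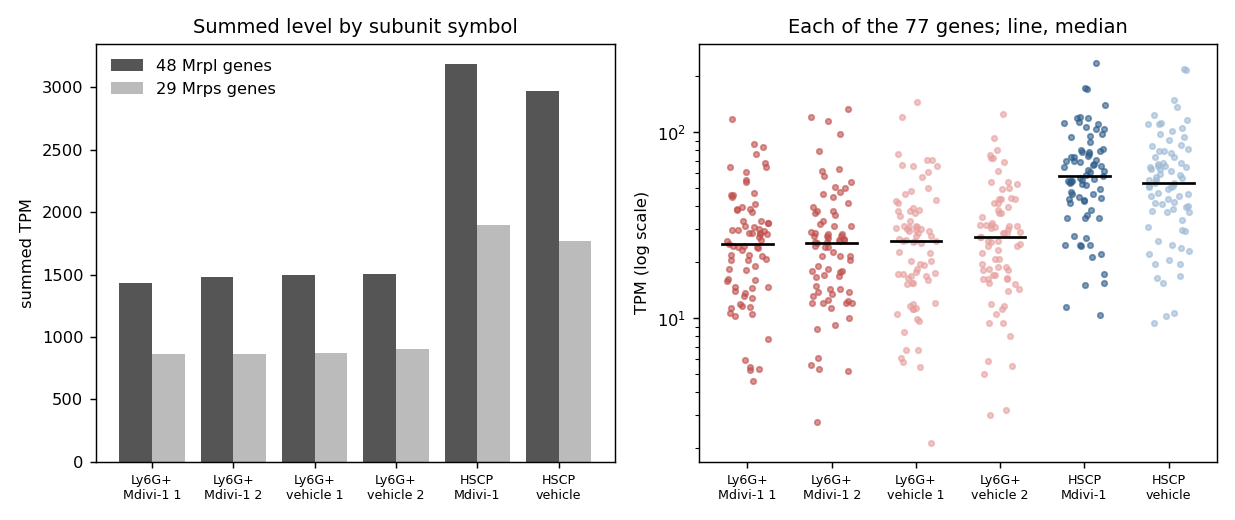
Left, bars of the summed TPM of the 48 Mrpl and 29 Mrps genes in each of the 6 libraries. Right, the level of each of the 77 genes per library, in TPM on a log axis, 1 point per gene with a line at the median. The medians lie at 25.04 to 27.2 TPM in the Ly6G+ libraries, below the 57.9 and 53.5 TPM of the HSCP libraries.

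Mrps21, a small-subunit protein with a bacterial counterpart, had the highest mean level over the 6 libraries. It had 118 and 115 TPM in Ly6G+ Mdivi-1, 120 and 126 TPM in Ly6G+ vehicle, 170 TPM in HSCP Mdivi-1 and 215 TPM in HSCP vehicle. Mrpl52, a mitochondria-specific large-subunit protein, came next, with 62.1 to 76.8 TPM in the Ly6G+ libraries against 236 and 218 TPM in the HSCP libraries. All Ly6G+ libraries were below both HSCP libraries for each of these genes. At the low end, Mrpl17 and Mrpl35, both with bacterial counterparts, had at most 6.11 and 5.52 TPM in any Ly6G+ library. In HSCPs Mrpl17 had 10.3 and 10.2 TPM after Mdivi-1 and vehicle, and Mrpl35 had 11.4 and 9.38 TPM. These low genes are the ones whose changes the log2(TPM + 1) scale understates.

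Of the 77 genes, 75 were lower in Ly6G+ cells than in HSCPs, 0 were higher and 2 were not called (limma, Benjamini-Hochberg adjusted p under 0.05). Of all 12338 genes tested, 50.3% were called lower and 22.2% higher. The members' median log2(TPM + 1) difference was -1.08, within a range of -2.22 to -0.36, against -0.35 over all genes tested. A difference of -1 or lower was found for 42 members, against 19.9% of all genes. In 76 of the 77 genes every Ly6G+ library lay below both HSCP libraries, against 52.5% of all genes. After median-of-ratios scaling, which moved the median of all genes to -0.03, 68 members were lower, against 34.7% of all genes lower and 33.1% higher, and their median was -0.73. Relative to the median of all genes the members lay at -0.73 before that scaling and at -0.69 after it.

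**Figure D2:**
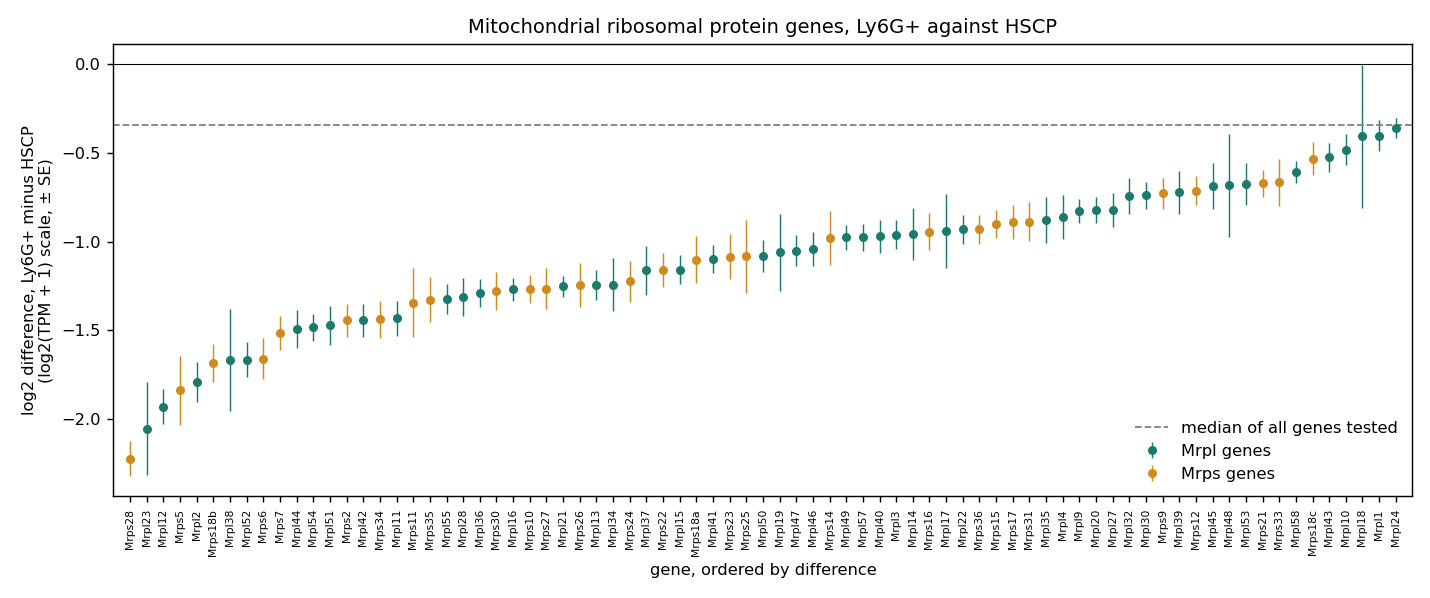
Log2(TPM + 1) difference of Ly6G+ cells from HSCPs for each mitochondrial ribosomal protein gene, ordered by size, with standard errors from the limma fit and the median of all tested genes as a line. The differences run from -2.22 for Mrps28 to -0.36 for Mrpl24, and the members' median is -1.08.

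Members with either symbol were lower. Of the Mrpl genes, 46 of 48 were lower with a median of -1.01, and of the Mrps genes 29 of 29 with a median of -1.16. By ancestry, 42 of 43 genes with a bacterial counterpart were lower, with a median of -0.96, as were 29 of 30 mitochondria-specific genes, with a median of -1.08. Genes with ETS letters in their promoter window were lower in 23 of 25 cases (median -0.94), and genes with a window but without them in 43 of 43 cases (median -1.08).

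The proteins of the large subunit's stalk, which recruits translation factors, were unequal. Mrpl12, the stalk protein that is also known to bind the mitochondrial RNA polymerase, had 29.3 and 24.1 TPM in Ly6G+ Mdivi-1 and 25.5 and 24.4 TPM in Ly6G+ vehicle, against 112 TPM in HSCP Mdivi-1 and 90.8 TPM in HSCP vehicle. Its highest Ly6G+ library was well under its lowest HSCP library, and its difference was -1.93 (SE 0.10, limma adjusted p = 1.5e-05). Mrpl10, which anchors Mrpl12, had 30.7, 28.8, 29.2 and 31.4 TPM in the Ly6G+ libraries, against 46.5 and 38.6 TPM in the HSCP libraries. The groups did not overlap there either, but the difference was only -0.48 (limma adjusted p = 0.0028), and the call was lost after median-of-ratios scaling, at -0.13. Mrpl11, at the base of the stalk, averaged 5.71 ± 0.485 TPM in Ly6G+ cells and 17.1 ± 0.228 TPM in HSCPs (SD, n = 4 and 2), a difference of -1.43.

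Elsewhere in the large subunit, Mrpl2, the counterpart of the bacterial protein beside the peptidyl transferase center, fell to 24.1, 27.8, 30.4 and 31.5 TPM in the Ly6G+ libraries, against 107 and 94.5 TPM in the HSCP libraries. The ratio of the means was 0.283, and no Ly6G+ library came near the HSCP level. Mrpl52 fell by 1.66 on the log2 scale. Mrpl38, a mitochondria-specific protein of the large subunit, averaged 14.95 ± 5.17 TPM in Ly6G+ cells and 48.1 ± 11.3 TPM in HSCPs (SD, n = 4 and 2), a difference of -1.67, with more spread than most members. Mrpl58, a peptidyl-tRNA hydrolase that became a ribosomal subunit, averaged 48.9 ± 4.20 TPM in Ly6G+ cells and 75.04 ± 6.66 TPM in HSCPs (SD, n = 4 and 2), a smaller difference of -0.61.

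In the small subunit, Mrps28 had the largest difference of all members on the log2(TPM + 1) scale. It had 14.7 and 13.9 TPM in Ly6G+ Mdivi-1 and 11.4 and 13.9 TPM in Ly6G+ vehicle, against 67.4 TPM in HSCP Mdivi-1 and 65.1 TPM in HSCP vehicle. The ratio of the means was 0.203 and the log2 difference -2.22 (SE 0.10, limma adjusted p = 1.1e-05). By the ratio of means alone Mrpl23, a low gene, was lower still, at 0.188. Mrps5, Mrps6 and Mrps7, all with bacterial counterparts, had differences of -1.83, -1.66 and -1.51. Mrps12, a protein of the decoding center, fell less, by 0.71 on the log2 scale, to 42.6 ± 2.71 TPM in Ly6G+ cells, against 70.5 ± 4.58 TPM in HSCPs (SD, n = 4 and 2).

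The 3 genes named for bacterial S18 did not move alike in size. Mrps18b and Mrps18c share sequence with other genes, as given below. Mrps18b fell by 1.68 on the log2 scale, Mrps18a by 1.10 and Mrps18c by 0.53, and the call on Mrps18c was lost after median-of-ratios scaling, at -0.17. Mrps18a and Mrps30 carry small-subunit names, yet their proteins are known to sit in the large subunit. Mrps30 fell by 1.28. Mrps36, known as a component of the alpha-ketoglutarate dehydrogenase complex, fell by 0.93.

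**Figure D3:**
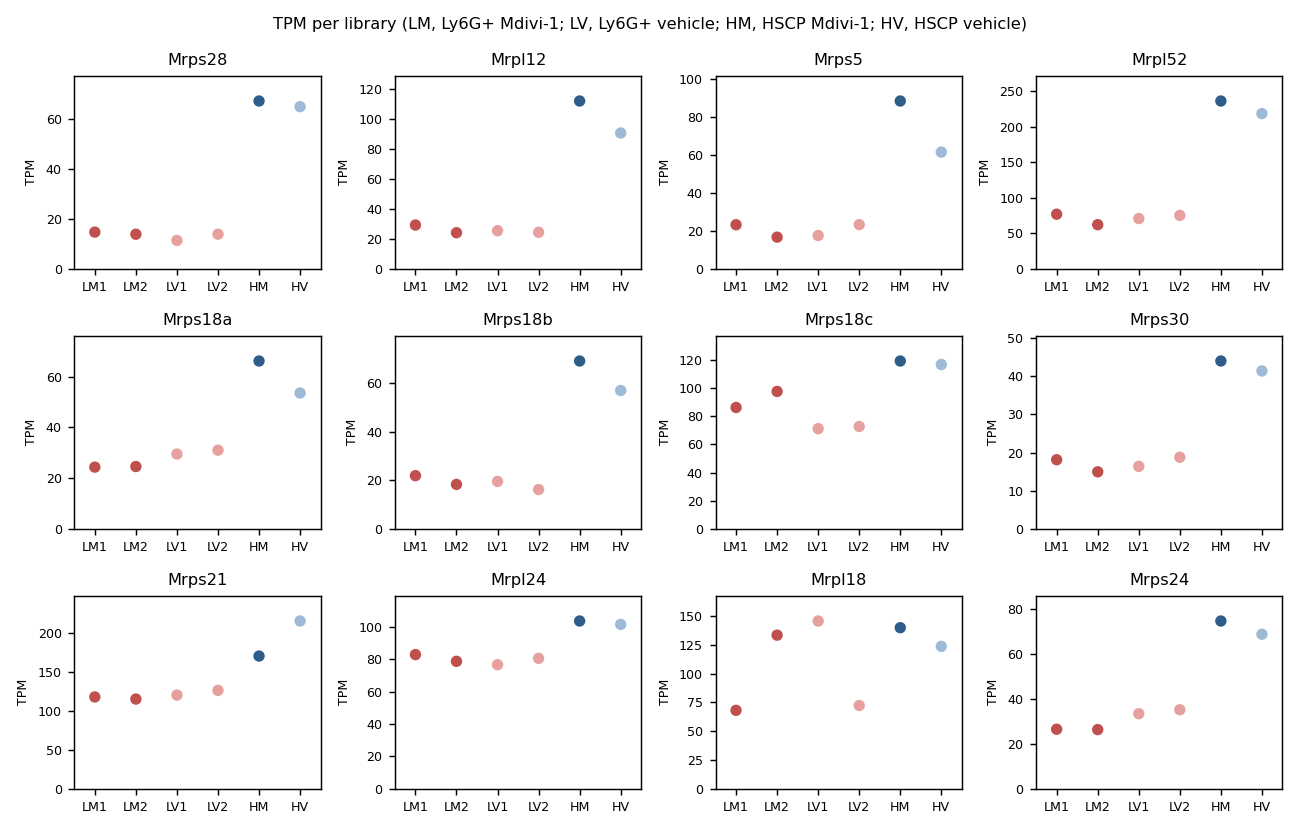
Levels of 12 members in TPM on linear axes that start at 0, 1 point per library, with the Ly6G+ libraries (red) left of the HSCP libraries (blue) and Mdivi-1 in the darker shade. Mrps28 and Mrpl12 show wide gaps between the populations, while the 4 Ly6G+ points of Mrpl18 reach into the HSCP range.

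A few large-subunit genes differed little. Mrpl24, a protein at the exit tunnel, averaged 79.8 ± 2.66 TPM in Ly6G+ cells and 103 ± 1.49 TPM in HSCPs (SD, n = 4 and 2). Its difference of -0.36 was called (limma adjusted p = 0.0016), but was 0.00 after median-of-ratios scaling. Mrpl1, of the stalk beside the exit site, at -0.40, and Mrpl43, a mitochondria-specific protein, at -0.52, also lost their calls under that scaling.

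Mrpl18 and Mrpl48 were the members not called. Mrpl18 had 68.2 and 134 TPM in Ly6G+ Mdivi-1 and 146 and 72.4 TPM in Ly6G+ vehicle, against 140 TPM in HSCP Mdivi-1 and 124 TPM in HSCP vehicle. Each Ly6G+ arm held a low and a high library, and the high ones lay within or above the HSCP range (difference -0.41, limma adjusted p = 0.41). Mrpl48 had 64.6 and 120 TPM in Ly6G+ Mdivi-1 and 66.7 and 93.0 TPM in Ly6G+ vehicle, against 121 and 150 TPM in HSCPs after Mdivi-1 and vehicle (difference -0.68, limma adjusted p = 0.083). Without the second Ly6G+ Mdivi-1 library, Mrpl48 was called at -0.91 (limma adjusted p = 0.0028).

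Some members share sequence with other genes, which bears on how reads were divided. On the M21 transcripts, the median member had 93.4% of its 31-base words in no other gene, and 48 members had at least 90%. All 48 of those were called lower, with a median of -1.09, as were 27 of the 29 others, with a median of -1.05. Mrpl53 kept only 15.6% unique words, Mrps34 26.2% and Mrps25 31.1%, the last sharing 68.9% with Nr2c2. Of genes singled out above, Mrpl43 kept 61.5%, Mrps18c 65.5%, Mrps18b 68.4% and Mrpl24 72.8%, against 99.8% for Mrps18a. The size of the difference is less certain for those with fewer unique words. Mrpl23, a protein at the rim of the exit tunnel, has an expressed pseudogene, Mrpl23-ps1. Mrpl23 itself had 5.32 and 2.75 TPM in Ly6G+ Mdivi-1 and 2.13 and 2.999 TPM in Ly6G+ vehicle, against 24.6 TPM in HSCP Mdivi-1 and 10.6 TPM in HSCP vehicle. Its pseudogene had 55.6 to 57.6 TPM in the Ly6G+ libraries, against 180 and 169 TPM in the HSCP libraries. The sum of both was 58.7 to 60.9 TPM in the Ly6G+ libraries, against 204 and 179.5 TPM in the HSCP libraries, a log2(TPM + 1) difference of -1.66 with no test. Most of this sum is the pseudogene, so it largely follows the pseudogene whatever Mrpl23 does. Mrpl23 had 85.8% unique words and shared 10.3% with the pseudogene. The value for Mrpl23 alone is uncertain.

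Few of these genes differed by treatment in Ly6G+ cells. Only 1 of the 77 was called lower, 0 were called higher and 76 were not called (limma, adjusted p under 0.05), while 4.24% of the 11775 genes tested were called lower and 2.46% higher. At an unadjusted limma p under 0.05, 10 members were lower and 3 higher, against 17.1% and 8.61% of all genes. Their summed level was 2319 ± 35.1 TPM after Mdivi-1 and 2389 ± 32.0 TPM after vehicle (SD, n = 2 each). The members' median log2(TPM + 1) change was -0.04, against -0.05 over all genes, and 0.02 after median-of-ratios scaling. Both Mdivi-1 libraries lay below both vehicle libraries for 22 members and above them for 7, against 36.7% and 21% of all genes.

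The member called was Mrps24, a small-subunit protein with a bacterial counterpart. It had 26.5 and 26.3 TPM in Ly6G+ Mdivi-1, against 33.4 and 35.1 TPM in Ly6G+ vehicle. Of its 31-base words 83.6% were in no other gene, and 13.2% were shared with Urgcp. Both Mdivi-1 libraries were below both vehicle libraries, and the change was -0.36 (SE 0.07, limma adjusted p = 0.046). The call was lost once libraries were scaled by the median of ratios (-0.30, limma adjusted p = 0.061), where 3.09% of all genes were lower and 3.33% higher. With each of the 4 libraries left out in turn, the change was -0.40 to -0.33 and was not called (limma adjusted p between 0.117 and 0.204). Each such fit leaves 1 library in an arm, assumed to vary like the other arm, and makes fewer calls over all genes, so its loss says little about Mrps24. The next members by adjusted p were Mrps18c, at 0.35 (86.3 and 97.8 TPM after Mdivi-1, 71.3 and 72.8 TPM after vehicle), and Mrps18a, at -0.30 (24.4 ± 0.167 TPM after Mdivi-1, 30.2 ± 1.08 TPM after vehicle, SD, n = 2 each). Their groups did not overlap, and neither passed (limma adjusted p = 0.070 and 0.073).

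Between libraries of the same arm, the median member differed by 0.14 on the log2 scale in both Ly6G+ arms. The widest gaps were those of Mrpl18, 0.96 in the Mdivi-1 arm and 0.9998 in the vehicle arm. Of the members, 6 in the Mdivi-1 arm and 4 in the vehicle arm differed by 0.5 or more between libraries. Marker levels moved with treatment in the same libraries. The 19 late neutrophil markers summed to 50990 and 50650 TPM in Ly6G+ Mdivi-1, against 34300 and 34210 TPM in Ly6G+ vehicle. Retnlg alone held most of these sums. Of the 19, 17 were above in both Mdivi-1 libraries, 1 (Cd177) was below, and 0 were at 0 TPM. The 12 B cell markers summed to 29.9 and 31.04 TPM in Ly6G+ Mdivi-1, against 165 and 166 TPM in Ly6G+ vehicle, with 12 of 12 below and 0 at 0 TPM. The 10 megakaryocyte markers were all below, and of 12 dendritic cell markers 9 were below and 1 above. The part of these markers in the members' levels was not tested.

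**Figure D4:**
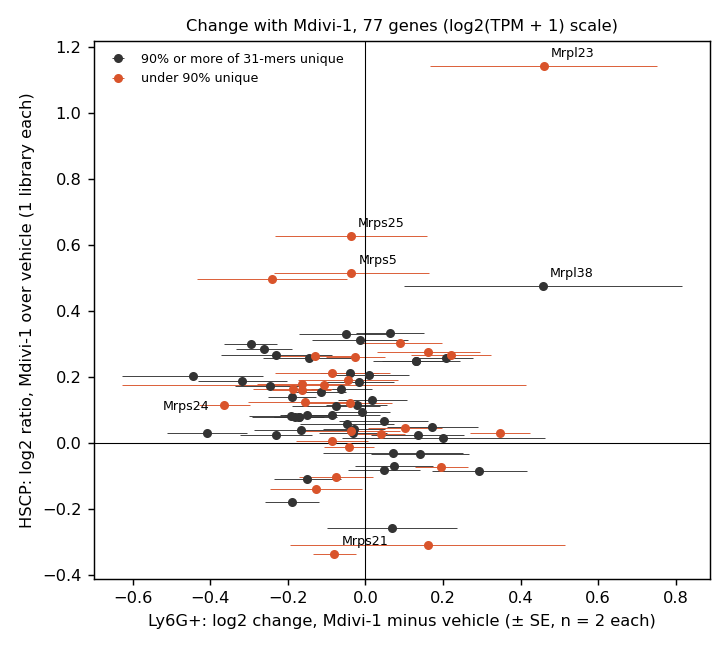
Log2(TPM + 1) change with Mdivi-1 in Ly6G+ cells (horizontal axis, 2 libraries per arm) and log2 ratio of Mdivi-1 to vehicle in HSCPs (vertical axis, 1 library per arm) for each member, with horizontal bars for the SE of the limma fit and orange points for genes with under 90% unique 31-base words. Most points lie within 0.5 of 0 on both axes, Mrps24 is the only member called in Ly6G+ cells, and Mrpl23 stands highest at 1.14 in HSCPs.

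In HSCPs the comparison set 1 Mdivi-1 library against 1 vehicle library, so no test was possible and the difference has no replicate check. Most members stood slightly higher after Mdivi-1. The log2(TPM + 1) ratio was above 0 for 63 of the 77 genes, against 57.3% of the 9482 genes with a mean of at least 5 TPM. The members' median ratio was 0.12 in these 2 libraries, against 0.03 over all genes. Their summed level was 1.07 times as high after Mdivi-1. For 18 members both Ly6G+ Mdivi-1 libraries lay below both Ly6G+ vehicle libraries while the HSCP ratio was above 0, against 17% of the 9461 genes measured in both comparisons, and for 2 members the reverse held, against 6.41%.

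A ratio of at least 0.5 was reached by 3 members, against 1.94% of all genes, and a ratio of -0.5 or lower by 0, against 3.28%. Mrpl23 had 24.6 TPM after Mdivi-1 and 10.6 TPM after vehicle, a ratio of 1.14. The sum of Mrpl23 and its pseudogene had a log2 ratio of 0.18. Most of that sum is the pseudogene, so it says little about Mrpl23 itself. Mrps25, a mitochondria-specific small-subunit protein, had 34.6 TPM after Mdivi-1 and 22.1 TPM after vehicle, and Mrps5 had 88.5 and 61.6 TPM. These 3 genes each had under 90% unique 31-base words. Mrps5 was at 0.49 after median-of-ratios scaling. Mrpl19 and Mrpl38 followed, at 0.50 and 0.48. The lowest ratios were those of Mrps21, at -0.34 (170 TPM after Mdivi-1, 215 TPM after vehicle), Mrpl48, at -0.31, Mrpl34, at -0.26, Mrpl58, at -0.18, and Mrps7, at -0.14.

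Markers of other cells also differed between these HSCP libraries. The 10 megakaryocyte markers summed to 176 TPM after Mdivi-1 and 359 TPM after vehicle, with 10 of 10 lower after Mdivi-1 and 0 at 0 TPM. The 9 eosinophil markers summed to 399 TPM after Mdivi-1 and 702 TPM after vehicle, with 9 of 9 lower and each above 0 TPM in both. Of 12 erythroid markers 8 were higher after Mdivi-1 and 4 lower. Of 12 B cell markers 11 were lower and 1 higher, as were 11 and 1 of 12 dendritic cell markers. Of 14 stem and progenitor markers 9 were lower and 5 higher. The 19 late neutrophil markers split into 10 lower and 9 higher, with sums of 3792 TPM after Mdivi-1 and 4309 TPM after vehicle. Ly6g had 90.2 TPM after Mdivi-1 and 187 TPM after vehicle. The part of these markers in the members' ratios was not tested.

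Most other genes of mitochondrial translation were also lower in Ly6G+ cells than in HSCPs. Among all genes tested, 50.3% were lower and 22.2% higher, or 34.7% and 33.1% after median-of-ratios scaling. The 5 subunits that carry other symbols (Dap3, Ptcd3, Aurkaip1, Chchd1 and Gadd45gip1) were all lower in Ly6G+ cells than in HSCPs. Their median log2(TPM + 1) difference was -0.99. After median-of-ratios scaling 4 of the 5 were lower and 0 higher, with a median of -0.64. Of 24 assembly factors, which build the ribosome or modify its RNA, 22 were lower and 0 higher (median -0.85). Among them the RNA methyltransferases Mrm3 and Mrm1 fell by 1.74 and 1.45. All 14 translation factors were lower (median -0.88), including the elongation factors Tsfm, at -2.02, and Tufm, at -1.52. Of 11 genes of mitochondrial DNA upkeep and transcription 7 were lower and 0 higher, or 7 lower and 3 higher after median-of-ratios scaling, with the helicase gene Twnk at -1.42 and the polymerase gene Polrmt at -1.16. Of the 13 messenger RNAs that this ribosome translates, 12 were lower and 1 was higher (median -0.70). After median-of-ratios scaling, 14 assembly factors were lower and 2 higher, 10 translation factors were lower and 0 higher, and 8 of the messenger RNAs were lower and 1 higher. The list medians stayed below 0, at -0.52, -0.54 and -0.33.

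Regulators of mitochondrial gene expression were lower in 6 of the 8 cases tested and higher in 0. After median-of-ratios scaling 3 were lower and 3 higher, close to the shares of all genes given above. Myc, a transcription factor that drives growth and ribosome genes, fell by 2.64 and Pprc1, a PGC-1 related coactivator, by 1.37. Other regulators differed less. Yy1 had 77.1 to 78.0 TPM in the Ly6G+ libraries, against 88.8 and 87.8 TPM in the HSCP libraries. Nrf1 had 40.0 to 47.1 TPM, against 48.7 and 44.7 TPM, and Gabpb1 28.3 to 31.7 TPM, against 43.3 and 40.3 TPM. In HSCPs, Myc had 122 TPM after Mdivi-1 and 69.3 TPM after vehicle, a ratio of 0.80 from 1 library per arm. All 24 genes of S phase were lower in Ly6G+ cells (median -1.19), and all 24 remained lower after median-of-ratios scaling. Of 93 genes tested whose symbol starts like that of a cytosolic ribosomal protein, 83 were lower and 4 were higher (median -1.34). Those higher were Rpl3l and the kinases Rps6ka3, Rps6ka4 and Rps6kc1. The kinases are not ribosomal proteins although their symbols fit. After median-of-ratios scaling 82 of the 93 were lower and 7 higher (median -0.97). After Mdivi-1 in Ly6G+ cells, these lists held 1 call in mitochondrial transcription, Slirp, an RNA stability factor, at 0.46 (limma adjusted p = 0.034), and 4 calls by cytosolic symbol, 3 higher and 1 lower. The assembly, renamed subunit, translation factor, mitochondrial messenger RNA, regulator and S phase lists held 0 calls there.

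**Figure D5:**
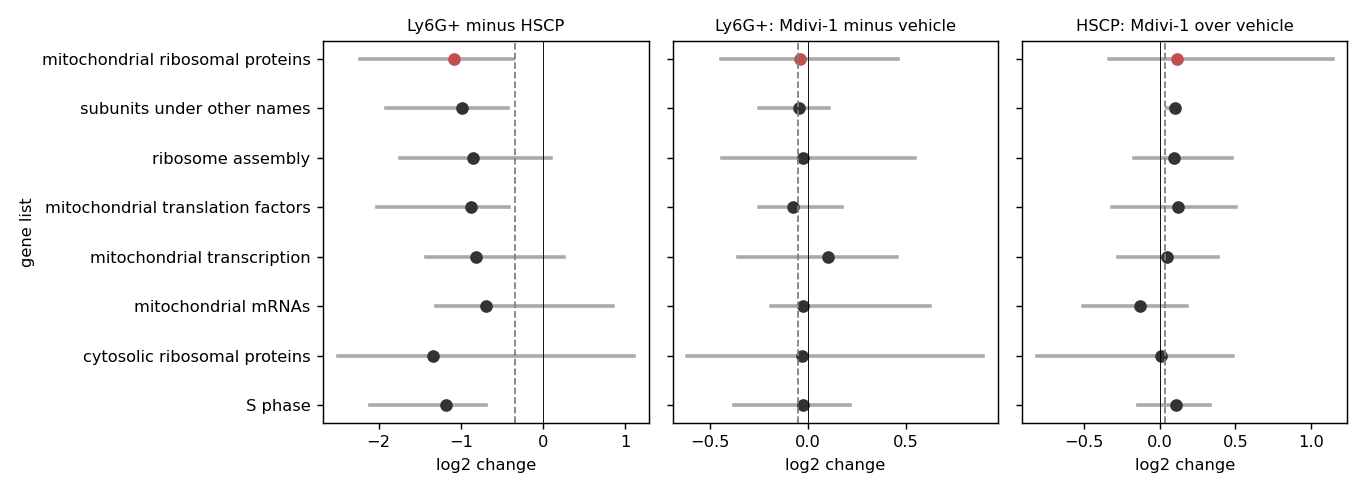
Median log2(TPM + 1) change (point) and range (bar) of the mitochondrial ribosomal protein genes (red) and of 7 companion gene lists, for Ly6G+ minus HSCP, for Mdivi-1 minus vehicle in Ly6G+ cells and for Mdivi-1 over vehicle in HSCPs, with a dashed line at the median of all genes. Between populations the medians run from -1.34 for cytosolic ribosomal symbols to -0.70 for mitochondrial messenger RNAs, and the treatment medians lie near 0.

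The messenger RNAs of mitochondrial DNA were set against the ribosomal proteins that translate them. Their summed level was 10.6 and 9.70 times that of the members in Ly6G+ Mdivi-1, 10.2 and 9.496 times in Ly6G+ vehicle, 7.02 times in HSCP Mdivi-1 and 8.52 times in HSCP vehicle. All Ly6G+ libraries lay above both HSCP libraries in this ratio, which was lowest in HSCP Mdivi-1. No test was run on it.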

How the data were processed

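RNA of 6 libraries in 4 groups was compared. The authors deposited 1 table of TPM per gene, made with kallisto, bcl2fastq and CASAVA 1.8 on build mm10, per the submitters' processing notes. For kallisto the version, annotation and strand setting were not given in the sources used here. Depth is unknown because TPM keeps no totals of reads, and intervals for counting error could not be had.

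Identifiers were matched to GENCODE M21, on the same assembly. Values were tested as log2(TPM + 1), with a pseudocount of 1 TPM, by limma 3.58.1 in R 4.3.3 with a trended, robust prior, over genes at 1 TPM or more in at least 2 libraries compared, and p-values were adjusted over all genes tested (Benjamini-Hochberg, threshold 0.05). Fold changes are on that scale, which understates changes of low genes. All 77 members passed the filter. The test between populations used 6 libraries with treatment as a term (3 residual degrees of freedom). It assumes the same treatment effect in both populations. The Ly6G+ treatment test used 4 libraries (2 degrees of freedom). HSCP ratios were computed without a test, at a mean of at least 5 TPM. The fit was also run on simulated data with independent noise and few changed genes. Many more genes were called between populations, so that run does not check those calls.

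Members, lists and rules were chosen with earlier results of these data known. Named genes were 10 given always, up to 10 members per direction past each test by size of change, the 5 smallest population differences, the 5 largest HSCP ratios per direction, and the members of highest (5) and lowest (3) mean level. Cytosolic ribosomal genes were selected by the start of their symbol. A narrower selection, tried after the counts were seen, was dropped because it also removed true ribosomal proteins. Words of 31 bases were counted over all M21 transcripts. Alternatives were 2 other scalings, a pseudocount of 0.1, no filter, a filter of 5 TPM, a plain prior, each library left out, a replicate block and each treatment alone.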

Additional observations from a re-analysis of the deposited data

Results flagged for a closer look

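Among the 30 members named by rule, Mrpl19, in the 4 Ly6G+ libraries, had 12.0 TPM in the second Mdivi-1 library, apart from 18.3 TPM in the first and 17.4 and 18.1 TPM in the vehicle libraries. It was picked out because the gap to the nearest library was large against the whole range, which chance alone gives in about 1 in 20 groups.

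For 5 of those 30 members, both Ly6G+ Mdivi-1 libraries lay below both vehicle libraries while the HSCP Mdivi-1 library lay above its vehicle library. Over all 77 members 18 met this description, against 17% of the 9461 genes measured in both comparisons. The difference between the populations was not tested, and each HSCP arm has 1 library. On the log2(TPM + 1) scale the changes in Ly6G+ cells and the ratios in HSCPs were -0.25 and 0.17 for Mrpl2, -0.15 and 0.26 for Mrpl35, and -0.30 and 0.30 for Mrps18a. They were -0.36 and 0.12 for Mrps24, and -0.16 and 0.18 for Mrps6.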

How the results depend on the processing

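Between populations, the count of members called lower stayed between 68 and 76 under every alternative run. The median difference of -1.08 was -0.73 after median-of-ratios scaling, -0.77 after upper-quartile scaling, -1.11 with a pseudocount of 0.1, -0.98 in vehicle libraries alone, -1.14 in Mdivi-1 libraries alone, and -1.14 to -0.98 with each library left out. With the scaling by the median of ratios, Mrpl24 was at 0.00 (limma adjusted p = 1), and the cause was not tested. The summed ratio of 0.479 was 0.617 and 0.596 under the 2 scalings, and 0.463 to 0.496 with each library left out.

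In Ly6G+ cells, the single lower call became 0 under both scalings, with no filter, with the plain prior, with all 6 libraries and with each library left out (0 to 0), where an arm holds a single library, assumed to vary like the other. Same-numbered libraries showed no shared deviation (r = -0.0306 over 11775 genes). That cannot show whether they shared an animal or a day, and no label says so. With the replicate block 0 members were called. The median change of -0.04 was 0.02 under both scalings, 0.00 with all 6 libraries, and -0.08 to -0.02 with each library left out. Over all genes, 499 lower and 290 higher calls became 114 and 104 with no filter, 220 and 126 with the plain prior, 255 and 96 with all 6 libraries, 173 and 152 with the replicate block, and 5 to 163 lower and 17 to 116 higher with each library left out. TPM gives no depth, and the HSCP arms have 1 library each, which limits every treatment value there.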

Other observations

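Some members start close to a neighbour on the other strand. In the M21 annotation, 33 of the 77 genes have a protein-coding gene on the other strand that starts within 1000 bases. Some of these pairs overlap at their starts. The share of all genes with such a neighbour was not counted, and a shared promoter was not tested. Mrpl46 and Mrps11 are such partners of each other. Of 31 other partner genes, 28 were tested between populations, and 20 were lower in Ly6G+ cells than in HSCPs, 5 were higher and 3 were not called, with a median log2(TPM + 1) difference of -0.64. Among all genes tested 50.3% were lower. Fau, which encodes a cytosolic ribosomal protein and starts 59 bases from Mrpl49, was at -1.80, and Sars2, a mitochondrial seryl-tRNA synthetase that starts 172 bases from Mrps12, was at -1.56. The 5 higher partners, Wdfy1, Pnpla7, Rab6a, Tmem63b and Klc4, adjoin Mrpl44, Mrpl41, Mrpl48, Mrpl14 and Mrpl2. Mrpl2 was at -1.79 and Klc4 at 0.81. The labels state no strand setting, so reads from sequence that overlapping neighbours share cannot be told apart. That sharing differed by pair. Mrpl43 shared 31.6% of its 31-base words with its partner Twnk, while Mrpl54 and Mrps12 had 100% unique words.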
